A study of Mus musculus with 12 samples.

Results

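The data describe what the loss of Phf6 changed in mouse embryonic stem cells that had been treated with retinoic acid. The comparison holds 4 of the 12 RNA-seq libraries of the series, chosen by their labels: 2 libraries of Phf6 knockout cells and 2 of wild-type cells, both under retinoic acid. All libraries came from ZHBTc4 cells, an embryonic stem cell line of the 129/Ola strain in which Oct4, the product of Pou5f1, can be switched off with doxycycline. In both genotypes its native Pou5f1 alleles have been inactivated, and the only Oct4 is made by a transgene under doxycycline control. The retinoic acid groups were kept without leukemia inhibitory factor and given all-trans retinoic acid over 4 days, at a dose that the protocol text writes as 10 mM, with no doxycycline named. The other groups used here for comparison were wild-type and knockout cells left untreated with the factor present, and both genotypes under doxycycline for 2 days (0.5 µg/ml in the labels), also with 2 libraries each. The cells were on fibroblast feeders during their first passages and on gelatin afterwards. The labels do not say how many clones the knockout stands for, nor whether the 2 replicates of a group were grown apart. The p-values therefore reflect the spread between these libraries alone, and that spread could be technical. RNA of the retinoic acid samples was purified with another kit than the RNA of the other groups, per the labels' protocols. An effect of the kit on levels cannot be told apart from the treatment, whereas both genotypes under retinoic acid shared 1 protocol.

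PHF6 is a chromatin-binding protein with a pair of extended plant homeodomain fingers, and the title of the series describes it as an enzyme that attaches ubiquitin to histone H2B. Retinoic acid enters cells, is carried by the CRABP proteins, and binds RAR and RXR receptors that sit on paired half-sites in target genes. Without leukemia inhibitory factor it drives embryonic stem cells out of the naive state, switches on the Hox clusters from their front end, and directs many of the cells to extraembryonic endoderm, the lineage that in the embryo forms the yolk sac and lays down its basement membrane. The naive state itself is held by a circuit of transcription factors around Oct4, Sox2, Nanog and Esrrb.

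Promoters of 3 genes show the kinds of site through which these receptors and factors are known to act. The windows below are the RefSeq promoters (build GRCm38.p6, 250 bases before to 50 bases after the start site, written 5′ to 3′ along the gene) of Rarb and Cyp26a1, textbook targets of the retinoic acid receptors, and of Nanog, a gene of the naive circuit. Capitals in the first pair mark the only match to a direct repeat of GTTCA with 6 bases between its copies, searched on both strands; in Cyp26a1 it lies on the other strand. Capitals in Nanog mark the only match to the composite Oct and Sox site, TTTGCAT and ACAATG with 1 base between them, also searched on both strands. Rarb lies at chr14:16575427-16575726 on the minus strand, Cyp26a1 at chr19:37697558-37697857 on the plus strand and Nanog at chr6:122707239-122707538 on the plus strand.
Rarb: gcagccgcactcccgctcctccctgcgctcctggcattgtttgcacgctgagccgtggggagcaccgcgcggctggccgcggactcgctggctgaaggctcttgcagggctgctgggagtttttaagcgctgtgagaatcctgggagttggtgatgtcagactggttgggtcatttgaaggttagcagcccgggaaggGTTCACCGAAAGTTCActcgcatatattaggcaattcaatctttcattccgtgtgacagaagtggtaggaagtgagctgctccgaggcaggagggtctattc
Cyp26a1: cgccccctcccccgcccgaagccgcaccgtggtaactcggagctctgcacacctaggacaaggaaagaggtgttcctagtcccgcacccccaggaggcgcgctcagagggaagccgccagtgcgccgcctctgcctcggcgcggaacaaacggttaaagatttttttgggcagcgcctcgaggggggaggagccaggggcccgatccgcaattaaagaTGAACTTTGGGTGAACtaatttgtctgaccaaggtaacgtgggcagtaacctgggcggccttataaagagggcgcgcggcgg
Nanog: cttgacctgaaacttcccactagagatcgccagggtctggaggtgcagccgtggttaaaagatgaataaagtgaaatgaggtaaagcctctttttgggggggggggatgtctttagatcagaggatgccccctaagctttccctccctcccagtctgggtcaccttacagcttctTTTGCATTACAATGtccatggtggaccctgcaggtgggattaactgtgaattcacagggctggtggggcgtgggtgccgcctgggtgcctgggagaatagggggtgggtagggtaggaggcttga
The repeat was found in 25 of all 32851 promoter windows of this length (0.0761%), and among the 16 listed retinoic acid targets with a window it was in these 2 genes. The composite site was in 2 of all windows (0.00609%), both annotated to Nanog. A match describes the letters only, and binding was not measured here.

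The targeted gene was low in both knockout libraries. Phf6 (chrX:52912266-52956943) was at 40.3 and 40.7 CPM in the wild-type libraries and 5.897 and 5.96 CPM in the knockout libraries, a log2 change of -2.77 ± 0.11 (SE, 2 libraries per group; edgeR adjusted p = 3e-17). CPM are counts per 1000000 counts, scaled by edgeR's trimmed mean of M-values. The knockout level was 6.82-fold lower and not 0, and which part of the gene was altered is not given in the sources used here. Pou5f1, the Oct4 gene, was at 973 and 1081 CPM in the wild-type libraries and 976 and 989 CPM in the knockout libraries, and the libraries overlapped (log2 change -0.06 ± 0.09, adjusted p = 0.61). Retinoic acid libraries held 16543031 to 19784313 counts, and mitochondrial genes took 1.19% to 1.34% of them. Over all 12 libraries of the series, edgeR's common coefficient of variation within groups, which leaves out counting noise, was 4.38%.

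Of 17884 genes tested, 3355 rose in the knockout (18.8%) and 3581 fell (20%), by edgeR's quasi-likelihood test at an adjusted p under 0.05. Together these are 38.8% of the genes, and these shares are the background for every count of list members in retinoic acid given here. At least 2-fold changes were seen for 575 genes that rose (3.22%) and 666 that fell (3.72%), 6.94% together. With offsets for each library's effective gene lengths 2209 genes rose. The libraries of both genotypes did not overlap for 71.3% of genes, so a lack of overlap on its own says little. In bulk RNA, fewer cells of a type and less RNA per cell cannot be told apart, which holds for every cell type list below. List counts from other comparisons have their own background. It is 15.2% higher and 14.9% lower for untreated cells, and 17.9% and 19.1% under doxycycline. For the difference of retinoic acid from untreated cells it is 7.31% more positive and 10.3% more negative.

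Chromosome 1 stood apart from the other chromosomes. Among the 840 of its genes whose mean reached 1 CPM the median log2 change was -0.47, a level 0.72 times that of wild type, and 88.2% of these genes lay below 0. The medians of the other autosomes lay between -0.10 and 0.09. For chromosome 1 the median was also -0.47 in untreated cells and -0.48 under doxycycline, so the shift was not particular to retinoic acid. All 10 windows of 20 Mb along chromosome 1 had medians between -0.54 and -0.38, so the shift ran along its whole length. Of 1087 tested genes on this chromosome 633 fell (58.2%) and 47 rose (4.32%), 62.6% together, and it held 17.7% of all genes that fell. Leaving its genes out of the count left 6256 of 16797 genes called (37.2%), of which 3308 rose (19.7%) and 2948 fell (17.6%). A fit that never saw its genes called 6221 of 16812 (37.0%), with 2941 higher (17.5%) and 3280 lower (19.5%). Genes named below that lie on chromosome 1 are marked as such where the result turns on it, and lists with members there are also counted without them; a list with no such count has none there.

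**Figure D1:**
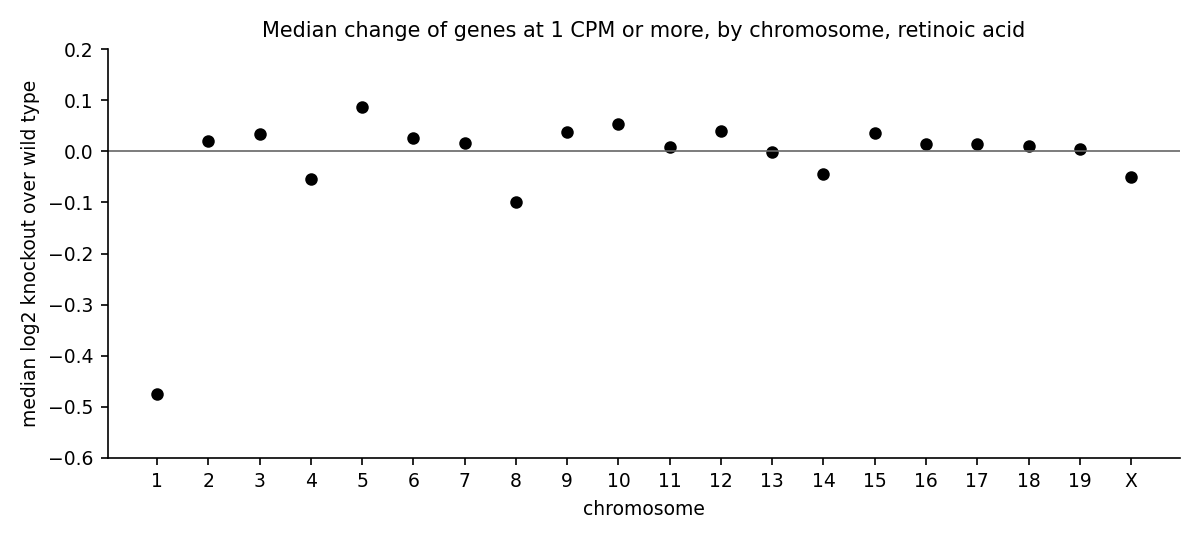
Median log2 change, knockout over wild type in retinoic acid, of genes whose mean reached 1 CPM, for each autosome and the X chromosome. Chromosome 1 lies at -0.47 and all other autosomes between -0.10 and 0.09.

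Genes of extraembryonic endoderm rose together. Of 38 tested members of the list 32 rose and none fell, with a median log2 change of 0.88 against -0.01 for all genes tested. Without chromosome 1 the count was 30 of 35, with none lower and a median of 0.89. The 6 endoderm markers were Gata6, Gata4, Sox17, Sox7, Dab2 and Lama1, and all 6 were called higher. Their summed level was 2299 and 2190 CPM in wild type and 4191 and 4330 CPM in knockout. Most of it came from Lama1, at 37922 to 74705 counts in the 4 libraries against 3145 to 9779 for Dab2, the next. The log2 change of Lama1 differed from that in untreated cells by only 0.22.

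The transcription factors that set up the lineage were among the genes that rose. Gata4, a zinc finger factor that specifies primitive endoderm, was at 41.7 and 40.00 CPM in the wild-type libraries and 75.2 and 77.7 CPM in the knockout libraries, a log2 change of 0.90 ± 0.07 and adjusted p = 3e-11. Gata6, its partner and an early switch for the lineage, was at 58.03 and 54.9 CPM in the wild-type libraries and 95.2 and 101 CPM in the knockout libraries (0.80 ± 0.07, adjusted p = 5.3e-10). Sox7, of parietal and visceral endoderm, was at 11.1 and 9.98 CPM in the wild-type libraries and 22.6 and 20.1 CPM in the knockout libraries (1.02 ± 0.13, adjusted p = 4.5e-07). For all 3 factors both knockout libraries lay above both wild-type libraries. Hnf4a, which runs the visceral endoderm programme of apolipoproteins, rose by 1.10 on the log2 scale. Foxa2 rose by 0.71. Sox17, which lies on chromosome 1, was at 42.7 and 36.9 CPM in wild type and 44.1 and 51.2 CPM in knockout. Its small rise (0.26 ± 0.10, edgeR adjusted p = 0.045) was lost with DESeq2 (adjusted p = 0.18). In edgeR it was lost with the replicate block (adjusted p = 0.065) and with effective-length offsets (0.15). It was also lost without wild-type replicate 2 or knockout replicate 2, at log2 changes of 0.16 and 0.15.

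The endocytic receptors of visceral endoderm, which take up maternal nutrients, rose as well. Cubn (chr2:13276338-13491813), which encodes cubilin, was at 358 and 352 CPM in the wild-type libraries and 1455 and 1434 CPM in the knockout libraries, a log2 change of 2.02 ± 0.05 and adjusted p = 7.3e-22. Amn, for amnionless, the membrane anchor of cubilin, was at 4.76 and 4.29 CPM in the wild-type libraries and 18.8 and 19.4 CPM in the knockout libraries (2.07 ± 0.15, adjusted p = 4.5e-12). Lrp2, for megalin, the large receptor that works beside cubilin, was at 139.7 and 140.3 CPM in the wild-type libraries and 379.8 and 365 CPM in the knockout libraries (1.41 ± 0.05, adjusted p = 1.1e-18). The 3 receptor genes thus rose 2.66-fold to 4.205-fold with close replicates. Dab2, the clathrin adaptor that sorts these receptors and an early endoderm marker, was at 176 and 157 CPM in the wild-type libraries and 458 and 483 CPM in the knockout libraries (1.5 ± 0.06, adjusted p = 5.5e-18).

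Secreted products of visceral endoderm followed. Ttr, the carrier of thyroid hormone and of retinol binding protein, was at 1.805 and 2.14 CPM in the wild-type libraries and 9.17 and 10.9 CPM in the knockout libraries (2.35 ± 0.21, adjusted p = 4e-09). Apom rose by 2.23 and Apob by 1.16, both components of lipoproteins, and Rbp4, the retinol carrier of blood, by 1.14. All of these levels were under 20 CPM, and in the 4 libraries each gene's knockout values lay above its wild-type values. Apoe, made by many cell types, was at 175 and 189 CPM in wild type and 186 and 200.3 CPM in knockout and was not called.

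Basement membrane genes, the main product of parietal endoderm, rose at high levels. Lamb1 (chr12:31265234-31329644), a laminin chain and a classical marker of retinoic acid treatment, was at 1504 and 1487 CPM in the wild-type libraries and 2697 and 2859 CPM in the knockout libraries, a log2 change of 0.89 ± 0.05 and adjusted p = 1.2e-13. The other chains of the same laminin, Lama1 (0.88 ± 0.05) and Lamc1 (0.40 ± 0.05), rose as well, the latter although it lies on chromosome 1. The type IV collagen genes Col4a1 (0.88 ± 0.05) and Col4a2 (0.90 ± 0.06), which share a promoter region, rose alike. Sparc, a matrix protein abundant in parietal endoderm, was at 752 and 762 CPM in the wild-type libraries and 1746 and 1938 CPM in the knockout libraries (1.28 ± 0.05, adjusted p = 1.5e-17). Srgn, a secretory granule proteoglycan, rose by 1.33, and Plat, a plasminogen activator, by 0.90. Hspg2, for perlecan, rose by 0.67. Nid1, for the linker protein nidogen, did not pass the test (-0.09 ± 0.05). In the wider list of collagens and matrix 20 of 31 genes rose and 7 fell (median 0.42), and off chromosome 1 19 of 27 rose and 4 fell. Without wild-type replicate 1, without knockout replicate 2 or with DESeq2, 4 of the 31 fell. Fibronectin, Fn1, on chromosome 1, was among those that fell (-0.69 ± 0.06).

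**Figure D2:**
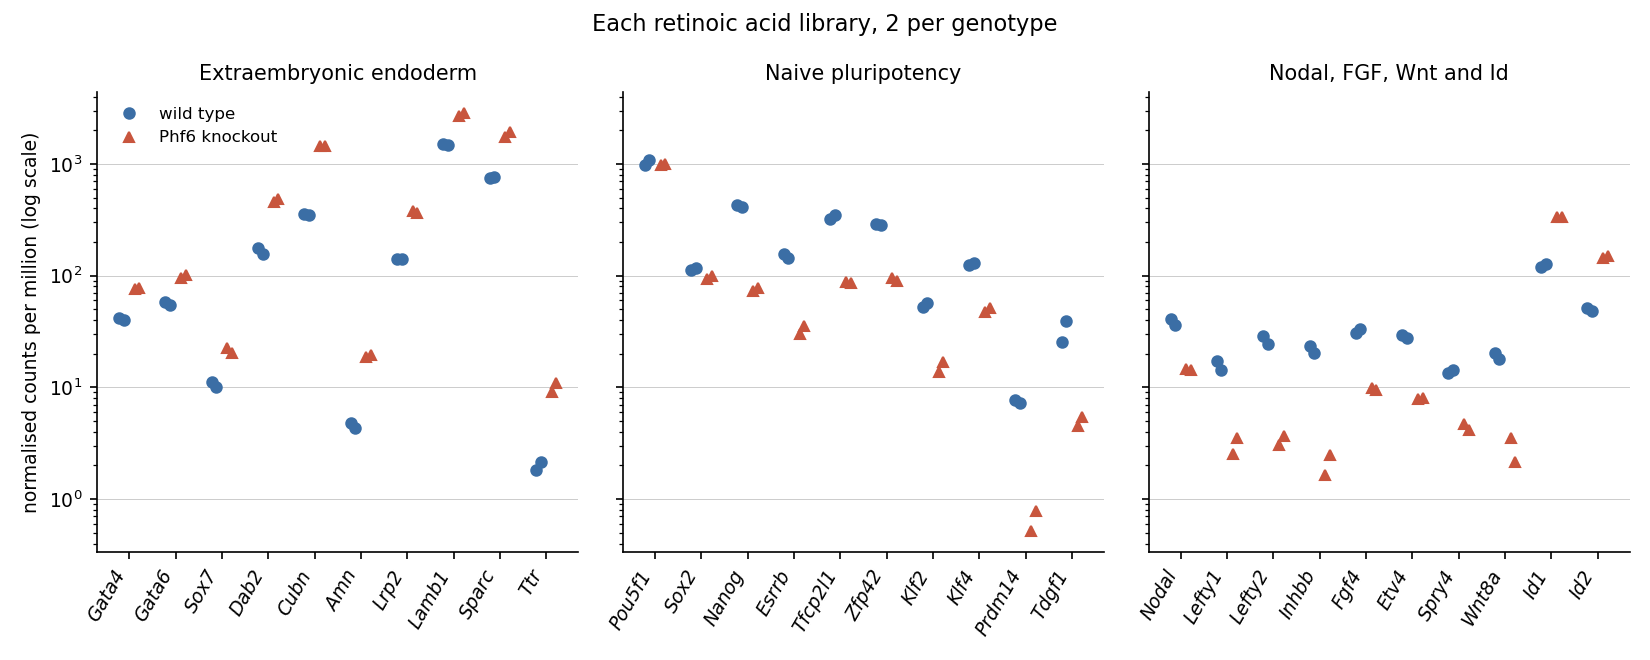
Normalised CPM on a log axis for 30 named genes in each of the 4 retinoic acid libraries, circles for wild type and triangles for knockout. Endoderm genes lie higher in both knockout libraries, most of the plotted naive pluripotency, Nodal, FGF and Wnt genes lie lower, and Pou5f1 overlaps.

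Genes of the naive state fell, while Pou5f1, whose product in this line comes only from the transgene, was not called. Of 31 tested naive pluripotency genes 23 fell, 3 rose and 5 were not called (median -0.88); off chromosome 1, 20 of 27 fell. Nanog was at 431 and 413 CPM in the wild-type libraries and 73.2 and 77.03 CPM in the knockout libraries, a log2 change of -2.49 ± 0.05 and adjusted p = 1.5e-23. Esrrb, an orphan nuclear receptor of the same circuit, was at 155 and 144 CPM in the wild-type libraries and 30.2 and 35.7 CPM in the knockout libraries (-2.19 ± 0.06, adjusted p = 2.8e-20). Zfp42, for Rex1, a reporter gene of the naive state, was at 290.0 and 285 CPM in the wild-type libraries and 95.4 and 90.05 CPM in the knockout libraries (-1.63 ± 0.05, adjusted p = 5.3e-20). The gap between genotypes was many times the gap between replicates for all 3 genes.

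Other members followed in the same direction. Klf2 (-1.84 ± 0.08) and Klf4 (-1.38 ± 0.06), Krüppel-like factors of the naive circuit, fell, whereas Klf5 rose slightly (0.24 ± 0.05). Tfcp2l1, on chromosome 1, fell from 322 and 348 to 88.5 and 86.3 CPM, and Prdm14, also on chromosome 1, from 7.75 and 7.28 to 0.515 and 0.784 CPM; both are transcription regulators of the naive state. Their log2 changes of -1.94 and -3.54 stand against a chromosome median of -0.47. Nr5a2, an activator of Pou5f1 on the same chromosome, fell by 2.54 on the log2 scale. Dppa3, a maternal and germ cell factor, fell from 2.55 and 3.69 to 0.0936 and 0.209 CPM (-4.33 ± 0.45). Tet1 (-0.56 ± 0.06) and Tet2 (-0.88 ± 0.07), which oxidise 5-methylcytosine, fell too.

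Sox2 changed little, at 113 and 117 CPM in the wild-type libraries and 93.2 and 99.8 CPM in the knockout libraries (-0.25 ± 0.05, adjusted p = 0.00052). Dppa4, Tbx3 and Gbx2 were not called, at log2 changes of 0.01, -0.11 and -0.15. Lin28a, an RNA-binding protein that blocks let-7 processing, rose from 75.8 and 73.7 to 110.2 and 116 CPM (0.60 ± 0.05), and Stat3, the transducer of leukemia inhibitory factor, by 0.32. The summed level of the 6 pluripotency markers was 2086 and 2171 CPM in wild type and 1315 and 1343 CPM in knockout. Of these 6, 5 were called lower. The exception was Pou5f1, whose level does not report on its inactivated native alleles.

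Both shifts differed from what the knockout did to untreated cells. The genotype change in retinoic acid differed from that in untreated cells for 3157 genes (17.7%), 1308 more positive (7.31%) and 1849 more negative (10.3%), by a test of the difference itself. With effective-length offsets 783 were more positive and 978 more negative, and with DESeq2 976 were more negative. Among endoderm genes 19 of 38 had a more positive change in retinoic acid and 1 a more negative one. In untreated cells 6 of the 38 were higher in knockout and 8 lower, with a median of 0.03. Dab2, for example, was at mean levels of 4.27 and 1.59 CPM in untreated wild type and knockout, a log2 change of -1.42 ± 0.21, so that the difference between conditions was 2.92 ± 0.22 (adjusted p = 4.9e-11). For Lrp2 the untreated change was -0.36 and the difference 1.77 ± 0.08; for Sparc these values were -0.60 and 1.88 ± 0.07. Fst, for follistatin, which binds activin, was the gene with the more negative change (-1.72 ± 0.24, adjusted p = 4e-06), since it was higher in untreated knockout cells (1.85) and was not called in retinoic acid.

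Among naive genes 23 of 31 had a more negative change in retinoic acid and 1, Lin28a, a more positive one (1.46 ± 0.07). In untreated cells 10 of the 31 were higher in knockout and 9 lower, with a median of 0.08. Nanog stood at means of 947 and 754 CPM in untreated wild type and knockout, and its changes differed by -2.16 ± 0.07 (adjusted p = 1.3e-18). Esrrb stood at 1113 and 1057 CPM, and its changes differed by -2.11 ± 0.08 (adjusted p = 6.8e-17). Klf4 rose in untreated knockout cells (0.82) and fell in retinoic acid. Many endoderm genes were close to 0 in untreated cells, such as Cubn at 0.514 and 0.648 CPM, so their untreated changes are poorly determined.

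**Figure D3:**
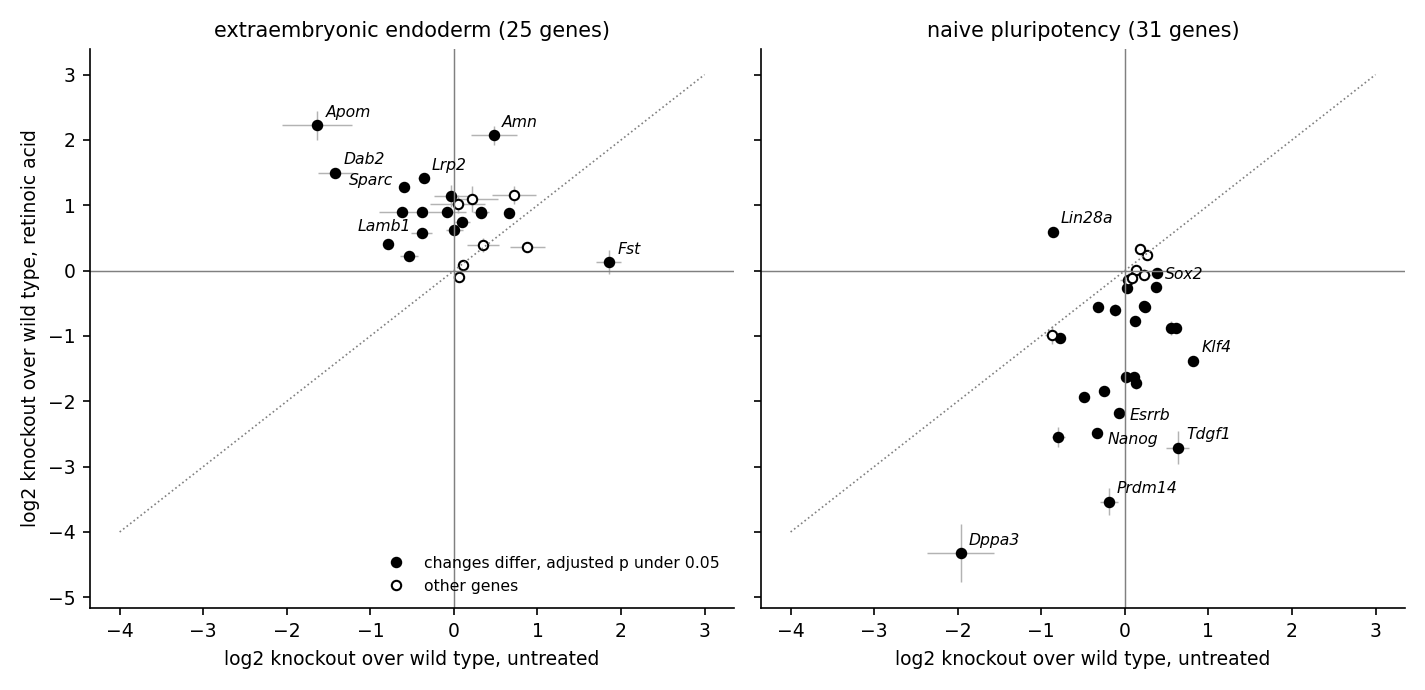
Log2 change, knockout over wild type, in retinoic acid (vertical) against untreated cells (horizontal) for 25 endoderm genes with at least 1 CPM in an untreated group and 31 naive pluripotency genes, with SE bars and a dotted line of equal change. Filled points differ between the conditions; filled endoderm points lie above the dotted line except Fst, and filled naive points below it except Lin28a.

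Several genes of the Nodal pathway fell, some of them on chromosome 1. Nodal itself, the ligand, was at 40.9 and 36.1 CPM in the wild-type libraries and 14.7 and 14.3 CPM in the knockout libraries, a log2 change of -1.41 ± 0.08 and adjusted p = 1.4e-13. Its inhibitors and direct targets on chromosome 1 fell further: Lefty2 was at 28.6 and 24.3 CPM in the wild-type libraries and 3.04 and 3.66 CPM in the knockout libraries (-2.99 ± 0.13, adjusted p = 6.2e-17). Lefty1 was at 17.2 and 14.2 CPM in wild type and 2.53 and 3.56 CPM in knockout (-2.38 ± 0.15). In untreated cells both Lefty genes were higher in the knockout, by 0.88 for Lefty1 and 1.74 for Lefty2, so the direction turned with the treatment, and the differences of -3.26 ± 0.18 and -4.72 ± 0.15 passed the test. Tdgf1, the co-receptor Cripto, was at 25.6 and 39.5 CPM in wild type and 4.49 and 5.44 CPM in knockout (-2.71 ± 0.25), with the wild-type replicates further apart than for most genes. Inhbb, an activin subunit on chromosome 1, fell from 23.3 and 20.4 to 1.64 and 2.46 CPM. Gdf3, a ligand of the family, fell by 0.98. Otx2, a factor of the formative epiblast, was near 1 CPM in wild type and lower in knockout (-2.71 ± 0.44). In the list of formative and primed epiblast genes 11 of 19 fell and 3 rose (median -0.73; 9 of 17 fell off chromosome 1).

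The Id genes, which respond to BMP, rose. Id1, an inhibitor of differentiation factors and a direct SMAD target, was at 119 and 126 CPM in the wild-type libraries and 332 and 335 CPM in the knockout libraries, a log2 change of 1.45 ± 0.11 and adjusted p = 1.3e-05. Id2 was at 51.1 and 48.2 CPM in the wild-type libraries and 143 and 151 CPM in the knockout libraries (1.56 ± 0.06, adjusted p = 9.9e-18). Id3 rose by 0.73. The knockout libraries lay above the wild-type libraries for all 3. Among ligands Bmp2, made by visceral endoderm, rose by 0.96, whereas Bmp4 (-0.97 ± 0.11) and Bmp7 (-0.93 ± 0.10) fell. The inhibitory SMAD gene Smad7 fell by 0.97 and the decoy receptor gene Bambi rose by 0.58. Over the whole list of BMP, Nodal and activin genes 7 of 27 rose and 11 fell (median -0.07). Without its 4 members on chromosome 1, 7 of 23 rose and 8 fell, and the median was 0.11.

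More FGF pathway genes fell than rose, 10 against 4 of 20 tested, with a median of -0.21. The ligand gene Fgf4, which Oct4 and Sox2 activate, was at 30.9 and 33.5 CPM in the wild-type libraries and 9.83 and 9.57 CPM in the knockout libraries, a log2 change of -1.73 ± 0.09 and adjusted p = 3.4e-15. Several feedback and target genes of the pathway fell too. Etv4, an ETS factor, was at 29.5 and 27.7 CPM in wild type and 7.91 and 8.001 CPM in knockout (-1.85 ± 0.09), and Etv5 at 223 and 223 CPM in wild type and 112 and 109 CPM in knockout (-1.01 ± 0.05). Spry4, an inhibitor of the pathway, was at 13.4 and 14.2 CPM in wild type and 4.68 and 4.18 CPM in knockout (-1.63 ± 0.10), Spry2 fell by 1.12 and the phosphatase gene Dusp6 by 0.45. Of these, Dusp6 was higher in untreated knockout cells (0.55). Among the receptors Fgfr3 rose, at 11.2 and 12.9 CPM in wild type and 34.9 and 36.3 CPM in knockout (1.57 ± 0.11), as did Fgfr4 (1.05 ± 0.13), while Fgfr1, the most abundant receptor gene in CPM, fell slightly (-0.21 ± 0.05). The ligand gene Fgf10 rose by 1.27. Of the 20 genes 11 had a more negative change in retinoic acid than in untreated cells.

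Of 31 Wnt pathway genes 11 fell, 6 rose and 14 were not called (median -0.01), and off chromosome 1 9 of 28 fell and 6 rose (median 0.01). Wnt8a was at 20.1 and 17.9 CPM in the wild-type libraries and 3.51 and 2.14 CPM in the knockout libraries, a log2 change of -2.73 ± 0.21 and adjusted p = 1.2e-09. Wnt3 fell from 4.67 and 4.09 to 1.12 and 0.941 CPM, and Wnt6, on chromosome 1, from 5.899 and 5.88 to 1.17 and 0.784 CPM. The direct target Axin2 was at 29.8 and 24.1 CPM in wild type and 13.6 and 13.1 CPM in knockout (-1.02 ± 0.10), and Cdx1, a target of both Wnt and retinoic acid signals, at 73.1 and 69.6 CPM in wild type and 10.3 and 12.1 CPM in knockout (-2.67 ± 0.12, adjusted p = 5e-13). The receptor gene Fzd10 fell by 1.99, and Fzd5, on chromosome 1, by 0.98. In the other direction the genes of secreted antagonists Dkk1 (1.42 ± 0.10), Frzb (1.34 ± 0.20) and Sfrp1 (0.57 ± 0.06) rose. Ctnnb1, the gene of beta-catenin, was at 1104 and 1080.0 CPM in wild type and 1105 and 1114 CPM in knockout and was not called. A total of 12 of the 31 had a more negative change in retinoic acid than in untreated cells, among them Wnt8a (-3.54 ± 0.84) and Fzd10 (-2.45 ± 0.18). Wnt8a was under 1 CPM in untreated cells of both genotypes (0.208 and 0.371 CPM).

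The retinoic acid pathway itself changed in part. The receptor genes Rara (0.13 ± 0.06) and Rarg (-0.11 ± 0.07) were not called. Rarb, whose promoter is printed above, was at 27.6 and 23.3 CPM in the wild-type libraries and 38.8 and 39.3 CPM in the knockout libraries, a log2 change of 0.62 ± 0.10 and adjusted p = 1.8e-05; with effective-length offsets its change was 0.46 and did not pass (adjusted p = 0.15). Of the partner receptors Rxra fell by 0.43. In the list of receptors and cofactors 4 of 16 rose and 6 fell (median -0.10), and off chromosome 1 4 of 14 rose and 4 fell. With effective-length offsets 1 of the 16 rose. Nr2f1, for the orphan receptor COUP-TF1, rose from 3.87 and 3.44 to 10.1 and 9.94 CPM.

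Carriers and enzymes of retinoids moved apart. Crabp1, a cytoplasmic carrier of retinoic acid, was at 18.05 and 17.3 CPM in the wild-type libraries and 63.3 and 62.5 CPM in the knockout libraries, a log2 change of 1.83 ± 0.07 and adjusted p = 2.3e-17. Crabp2, which delivers retinoic acid to its receptors, was at 69.4 and 71.6 CPM in the wild-type libraries and 162 and 146 CPM in the knockout libraries (1.13 ± 0.06, adjusted p = 5.3e-14). Cyp26a1, which degrades retinoic acid, was at 132 and 117 CPM in the wild-type libraries and 183 and 204 CPM in the knockout libraries (0.63 ± 0.06, adjusted p = 6e-09). These 3 genes were higher in both knockout libraries. Cyp26b1, of the same enzyme family, was at 79.2 and 76.7 CPM in wild type and 68.5 and 83.8 CPM in knockout and the libraries overlapped. The synthesis gene Aldh1a2 rose from 3.96 and 5.49 to 10.2 and 8.52 CPM. Dhrs3, which turns retinal back to retinol, fell by 0.79, and Stra6, the retinol transporter, by 0.55. Of 20 genes of retinoid uptake and metabolism 7 rose and 6 fell (median 0.04), and off chromosome 1 7 of 19 rose and 5 fell.

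Direct and early targets had no common direction. Hoxb1, at the front end of its cluster, was at 35.7 and 31.7 CPM in the wild-type libraries and 31.4 and 28.6 CPM in the knockout libraries (-0.17 ± 0.10, adjusted p = 0.20). Stra8, a germ cell gene named for its response, was at 135 and 150.4 CPM in wild type and 179.9 and 186 CPM in knockout (0.36 ± 0.06). The transglutaminase gene Tgm2, another target, fell from 63.4 and 78.00 to 33.5 and 36.5 CPM (-1.01 ± 0.10). Of 30 listed targets 14 rose and 10 fell (median 0.36), and off chromosome 1 14 of 28 rose and 9 fell. The list shares 7 genes with the endoderm list, among them Gata4, Gata6, Lama1, Lamb1, Foxa1 and Pdgfra, and all 7 were among those that rose. The rise of Foxa1 was lost with DESeq2 (adjusted p = 0.18) and, in edgeR, with effective-length offsets (adjusted p = 0.061). It was also lost without wild-type replicate 2 or knockout replicate 1 or 2, at log2 changes of 0.39, 0.40 and 0.45. In untreated cells Rarb was at 0.389 and 0.493 CPM and Cyp26a1 at 0.0917 and 0.277 CPM in wild type and knockout, so both genotypes had higher levels under the acid.

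Hox genes divided by their place in the cluster. Genes of paralog groups 1 to 8 include 23 tested genes, of which 9 rose and 3 fell (median 0.26). Genes of groups 9 to 13 include 15, of which 1 rose and 6 fell (median -1.49). Some of the 15, such as Hoxc11 and Hoxd11, had means under 1 CPM in both genotypes. This division was chosen after the values were seen and has no test. Hoxa5 was at 52.7 and 47.8 CPM in the wild-type libraries and 72.1 and 69.2 CPM in the knockout libraries (0.49 ± 0.08, adjusted p = 7.6e-06), and Hoxc5 at 3.79 and 4.69 CPM in wild type and 12.3 and 11.2 CPM in knockout (1.48 ± 0.18). Hoxa9 was at 50.01 and 38.6 CPM in the wild-type libraries and 12.3 and 11.6 CPM in the knockout libraries (-1.89 ± 0.12, adjusted p = 1.5e-12), Hoxa10 at 22.1 and 18.95 CPM in wild type and 5.29 and 4.34 CPM in knockout (-2.09 ± 0.16) and Hoxc10 at 6.87 and 6.53 CPM in wild type and 0.842 and 0.6798 CPM in knockout (-3.12 ± 0.25). There were exceptions to this division. The falls past group 8 lay in groups 9 to 11. At the back end Hoxa13, Hoxb13, Hoxc13 and Hoxd13 were not called, at log2 changes of -0.30, -0.13, -0.31 and -0.16. Their wild-type means were 2.14, 4.69, 4.18 and 2.90 CPM. Hoxd genes of groups 1 to 8 had 0 of 4 higher and 2 lower (median -0.70). Hoxb genes of groups 9 to 13 had 1 of 2 higher and 0 lower (median 0.53). Hoxb9 rose, at 32.9 and 31.7 CPM in the wild-type libraries and 74.1 and 72.4 CPM in the knockout libraries (1.18 ± 0.07, adjusted p = 2.3e-13), and Hoxd4 fell, from 6.47 and 4.89 to 2.01 and 1.99 CPM (-1.51 ± 0.26), as did Hoxa7 (-0.65) and Hoxd8 (-0.92). With DESeq2 Hoxa7 and Hoxd8 were not called (adjusted p = 0.056 and 0.11), nor was Hoxd8 by edgeR without wild-type replicate 1 (0.073). Over the whole list 10 of 38 rose and 9 fell (median -0.16), and 6 rose with effective-length offsets. Of the cofactors that bind DNA with Hox proteins, 5 of 11 rose and 2 fell (median 0.07; 5 and 1 of 10 off chromosome 1), with Meis1 at 0.42 ± 0.07 and Meis2 at 0.37 ± 0.06.

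**Figure D4:**
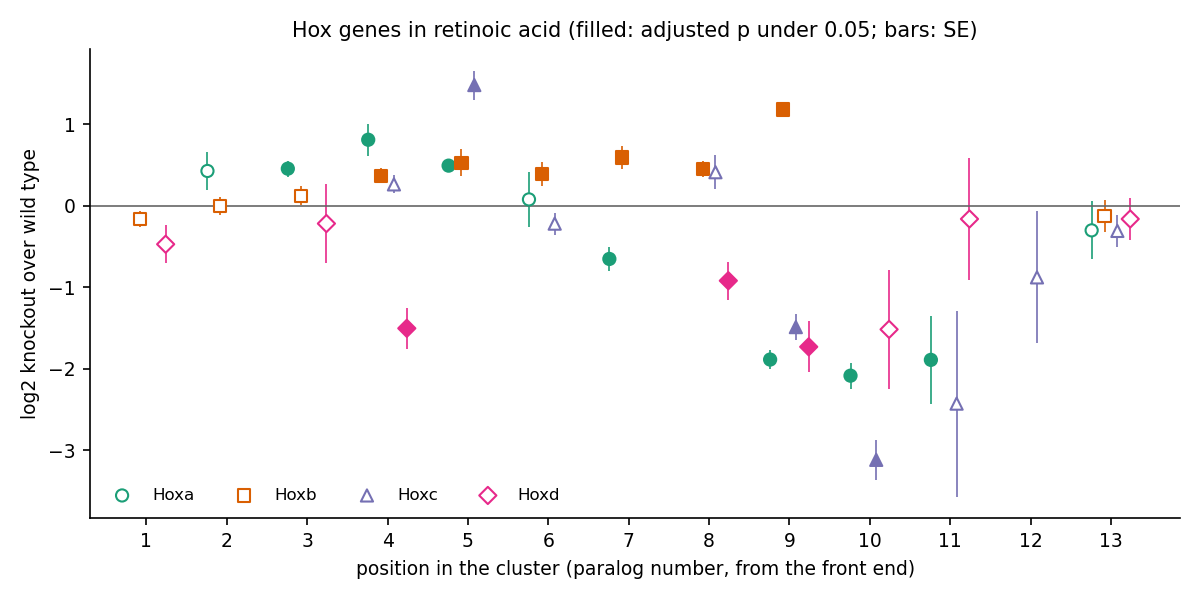
Log2 change, knockout over wild type in retinoic acid, of 37 of the Hox genes by paralog number, with SE bars; shape and colour give the cluster and filled symbols passed the test. From number 9 on, filled symbols lie below 0 except Hoxb9.

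More trophectoderm genes, the subject of the series title, fell than rose. Of 31 tested members 17 fell and 6 rose (median -0.33), none of them on chromosome 1. Cdx2, the factor that opens the lineage, was at 14.7 and 11.5 CPM in the wild-type libraries and 4.45 and 4.92 CPM in the knockout libraries, a log2 change of -1.49 ± 0.13 and adjusted p = 3.8e-10. Tfap2c was at 31.4 and 34.3 CPM in wild type and 14.04 and 12.03 CPM in knockout (-1.33 ± 0.09) and Esx1, a placental homeobox gene, at 34.1 and 36.1 CPM in wild type and 12.03 and 9.83 CPM in knockout (-1.68 ± 0.09). Krt7, a trophoblast keratin, fell from 8.54 and 8.08 to 1.97 and 1.88 CPM, and Ascl2, of placental progenitors, from 14.1 and 13.02 to 6.46 and 5.86 CPM. Gata2 and Gata3 were not called (-0.01 and 0.27). The genes that rose include Krt8, Krt18 and Krt19, keratins that endoderm also makes. In edgeR Krt8 lost its call without chromosome 1 genes (adjusted p = 0.0501) and Krt19 with effective-length offsets (0.10). Krt8 also lost it without wild-type or knockout replicate 2 (log2 changes of 0.15 and 0.17), and Krt19 without knockout replicate 2 (0.25). Gata3 was called higher without wild-type replicate 1 (log2 change 0.54). In untreated cells 2 of the 31 were higher and 18 lower in knockout (median -0.45), and under doxycycline 1 was higher and 26 lower (median -1.08). The untreated and retinoic acid changes differed for 19 of the 31 genes, 11 more positive and 8 more negative in retinoic acid. The summed level of the whole list was 6220 and 6078 CPM in wild type and 5344 and 5337 CPM in knockout, most of it from the imprinted gene Peg10 (means of 4229 to 3513 CPM, -0.27 ± 0.05). That of 6 trophoblast markers was 68.2 and 65.2 CPM in wild type and 33.0 and 32.6 CPM in knockout.

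Ribosome biogenesis genes fell by small amounts. Of 30 tested genes 26 fell and 1 rose (median -0.30), and off chromosome 1 22 of 26 fell. The 1 rise was lost without wild-type replicate 2 or either knockout library, with DESeq2 and with effective-length offsets. Ncl, for nucleolin, on chromosome 1, was at 1263 and 1204 CPM in wild type and 676 and 681 CPM in knockout (-0.86 ± 0.06). Rrp12, an export factor of ribosomal subunits, was at 46.1 and 41.95 CPM in the wild-type libraries and 22.4 and 25.5 CPM in the knockout libraries (-0.88 ± 0.08, adjusted p = 3.6e-10). Ubtf, which opens ribosomal DNA to transcription, fell by 0.59 and Npm1, for nucleophosmin, by 0.20. In untreated cells 11 of the 30 were lower, and the change was more negative in retinoic acid for 10. Myc, a regulator of these genes, was at 12.6 and 10.3 CPM in the wild-type libraries and 5.34 and 4.86 CPM in the knockout libraries (-1.17 ± 0.12, adjusted p = 8.8e-09), and Ccnd1, for cyclin D1, at 17.8 and 15.1 CPM in wild type and 8.05 and 7.64 CPM in knockout (-1.07 ± 0.11). Mki67, a proliferation marker, was at 393 and 406 CPM in wild type and 399 and 399 CPM in knockout and overlapped between genotypes. Of 26 cell cycle and growth genes 6 rose and 9 fell (median -0.12), and 3 rose without wild-type replicate 2 and 2 with effective-length offsets.

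Imprinted genes held the largest fall among the genes that the naming rule picked. H19 (chr7:142575529-142578143), a long noncoding RNA made from the maternal chromosome, was at 510.3 and 481 CPM in the wild-type libraries and 6.83 and 7.06 CPM in the knockout libraries, 71.3-fold lower in the knockout (-6.16 ± 0.08, adjusted p = 1.1e-28). Igf2, its paternally expressed neighbour, was at 532 and 492 CPM in wild type and 263 and 283 CPM in knockout (-0.91 ± 0.05). Plagl1, for a zinc finger regulator of the imprinted network, fell from 7.18 and 6.93 to 0.281 and 0.471 CPM, and Meg3 from 7.44 and 7.43 to 0.936 and 0.628 CPM. Mest rose, at 155 and 148 CPM in the wild-type libraries and 607 and 595 CPM in the knockout libraries (1.99 ± 0.05, adjusted p = 3.7e-22), as did Cdkn1c, a cell cycle inhibitor (1.09 ± 0.06). Dlk1 was not called (0.05). Of 31 imprinted genes 13 fell and 6 rose (median -0.14), and H19, Plagl1 and Mest moved the same way in untreated cells (-5.24, -5.65 and 1.49).

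Beyond the lists, the genes with the largest changes were of many kinds. By the naming rule (called, a mean of 5 CPM or more in 1 group, libraries that do not overlap and a regular gene symbol) the 12 with the largest falls were H19, Npr3, Plagl1, Msc, Prdm14, Inhbb, Zfp951, Mep1b, Ly6a, Meg3, Hoxc10 and Lefty2. Npr3, the clearance receptor of natriuretic peptides, was at 25.5 and 26.03 CPM in the wild-type libraries and 1.17 and 1.31 CPM in the knockout libraries (-4.38 ± 0.16, adjusted p = 2.3e-18). Ly6a, the surface antigen Sca-1, fell from 18.97 and 21.6 to 2.200 and 2.04 CPM, and Mep1b, a brush border protease subunit, from 11.9 and 10.8 to 1.404 and 0.941 CPM. Msc, on chromosome 1, had a change of -3.55 and Zfp951 of -3.38.

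The 12 with the largest rises were Xcr1, Smoc2, Ugt2b34, Ttr, Nsg1, B3gat1, Apom, Ctnna2, Pyy, Reln, Crmp1 and Amn. Xcr1, a chemokine receptor of dendritic cells, was at 0.132 and 0.0499 CPM in the wild-type libraries and 17.3 and 15.1 CPM in the knockout libraries, a log2 change of 7.33 ± 0.29 and adjusted p = 1.5e-17. The wild-type level rests on 4 counts in both libraries, and the ratio of the summed counts was 174 with a 95% counting interval of 67.4 to 639 (exact binomial, counting error only). Xcr1 also rose in untreated (4.58) and doxycycline-treated cells (6.0). Smoc2, a matrix protein, rose from 0.836 and 1.097 to 7.58 and 7.01 CPM, and Reln, for the extracellular guide reelin, from 2.201 and 2.64 to 11.6 and 10.7 CPM. Crmp1 (2.12 ± 0.13), Nsg1 (2.29 ± 0.25) and Ctnna2 (2.23 ± 0.21) are known from neurons.

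**Figure D5:**
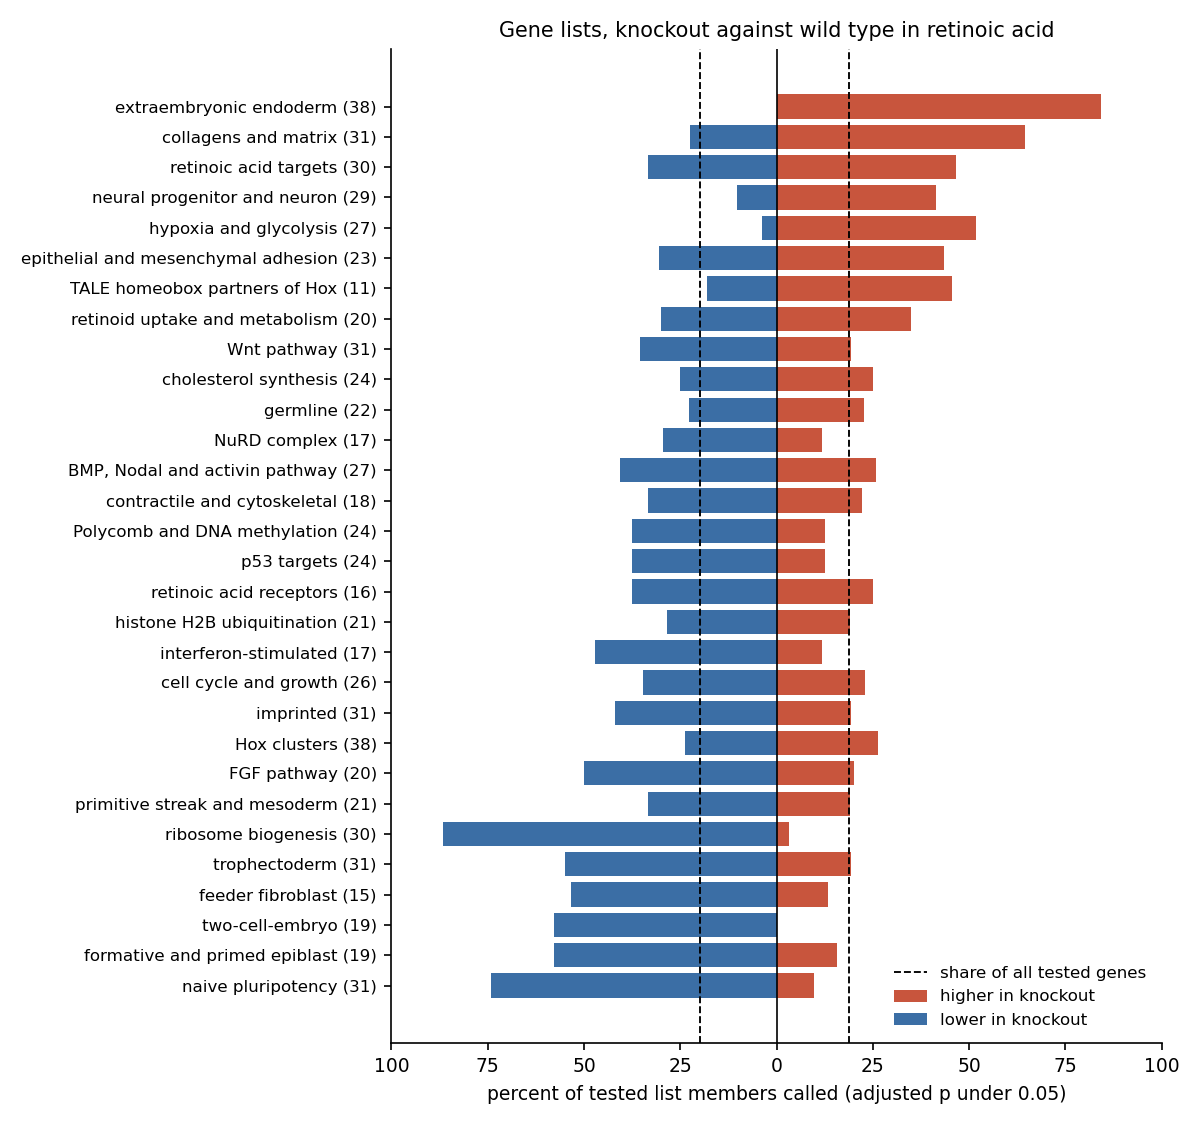
Share of the tested members of each of the 30 gene lists with at least 10 tested genes (number in brackets) that passed the test, higher in knockout to the right and lower to the left, ordered by the list's median change. Dashed lines mark the shares over all tested genes, 18.8% higher and 20% lower; the endoderm list reaches furthest right and the ribosome biogenesis list furthest left.

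Adhesion genes of epithelia moved in both directions. Cdh1, for E-cadherin, was at 237 and 245 CPM in the wild-type libraries and 89.01 and 84.4 CPM in the knockout libraries, a log2 change of -1.47 ± 0.05 and adjusted p = 6.1e-19, and Cldn4, a tight junction protein, fell from 30.7 and 31.3 to 8.003 and 9.26 CPM. Cdh6, for K-cadherin, rose from 11.8 and 9.53 to 33.5 and 33.00 CPM, and Cldn6 by 0.62. In the list of epithelial and mesenchymal adhesion 10 of 23 rose and 7 fell (median 0.11). Without wild-type replicate 2 or knockout replicate 2, 6 rose. The change of Cdh1 was -0.23 in untreated cells, and the difference of -1.25 ± 0.07 passed the test (adjusted p = 1e-13).

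Markers of other cell types were low. The 6 fibroblast markers summed to 31.3 and 31.5 CPM in wild type and 32.8 and 33.3 CPM in knockout, and the feeder fibroblast list had 2 of 15 genes higher and 8 lower (median -0.49), with 2 lower when knockout replicate 2 was left out and 4 lower without any other of the 4 libraries. With DESeq2 3 were lower and with effective-length offsets 4. Off chromosome 1 the list had 2 of 11 higher and 7 lower. The part of feeder cells in the results was not tested beyond these sums, which differed little between genotypes. Neural markers summed to 39.4 to 40.9 CPM in wild type and 47.0 to 49.2 CPM in knockout, and mesoderm markers to 24.7 to 30.4 CPM and 23.0 to 23.6 CPM. Markers of blood and endothelium summed to 48.9 and 51.7 CPM in wild type and 33.8 and 39.3 CPM in knockout. Endoderm and pluripotency markers thus had the largest sums, and all 6 of each were detected in all 4 libraries. The largest parts of these sums came from Lama1 and from Pou5f1, whose product here comes from the transgene.

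Genes of the complexes tied to PHF6 had medians near 0. In the NuRD complex, a chromatin remodeller to which PHF6 binds, 2 of 17 genes rose and 5 fell (median -0.06), with Mbd3 at -0.49 ± 0.06. In that list 3 fell without knockout replicate 2, and 4 rose with upper-quartile, relative log expression or effective-length scaling and with the retinoic acid libraries alone. Among genes of histone H2B ubiquitination 4 of 21 rose and 6 fell (median -0.10), with 2 to 3 lower when a wild-type library or knockout replicate 1 was left out, 3 with DESeq2 and 10 with the retinoic acid libraries alone. Off chromosome 1 the list had 4 higher and 5 lower of 20. The ligase genes Rnf20 (-0.13 ± 0.06) and Rnf40 (0.05 ± 0.05) were not called, and the deubiquitinase gene Usp22 rose by 0.43.

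Against doxycycline, the other way these cells were made to differentiate, the genotype change differed for 3952 genes (22.1%), 1921 more positive in retinoic acid (10.7%) and 2031 more negative (11.4%). With effective-length offsets these were 1121 and 1189, and with DESeq2 1306 were more negative. Cubn, with a doxycycline change of -2.20 at a low level (0.9296 and 0.203 CPM in wild type and knockout), differed by 4.23 (adjusted p = 1.2e-08). Gata6 was lower in knockout under doxycycline (-2.38) and higher under retinoic acid. Lefty2 turned the other way, by -5.46 (adjusted p = 1.7e-12). Of the 3355 genes that rose in retinoic acid, 1221 also rose in untreated cells, 36.4% of the former and 45.0% of the 2713 that rose untreated, and 197 fell there. Of the 3581 that fell, 1495 also fell untreated, 41.8% of the former and 56.3% of the 2656 that fell untreated, and 275 rose there. These comparisons share no libraries. Over all genes tested 15.2% rose and 14.9% fell in untreated cells. Chromosome 1 held 633 of the 3581 genes that fell, and its median change was -0.47 in both conditions. The overlap was not counted without its genes.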

How the data were processed

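RNA was sequenced from 12 libraries in 6 groups of 2, of which 4 libraries make the comparison described here. Reads were aligned with STAR 2.5.3a, quantified with RSEM 1.3.0 on mm10 and tested with DESeq2 1.18.1, per the submitters' processing notes. Which annotation release and strand setting were used is not given in the sources used here. The deposited file of each library is an RSEM table that holds, per the file headers, the authors' expected counts, TPM and effective lengths for 53379 genes. The deposited TPM were used only to check levels per length, and the effective lengths, another deposited value, only in 1 alternative. Coordinates came from GENCODE M21 (GRCm38), which held 53274 of the identifiers.

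Expected counts were rounded to whole numbers. Genes were filtered with edgeR's filterByExpr (minimum count 10), libraries were scaled by trimmed mean of M-values, and all 12 libraries entered 1 quasi-likelihood fit with 6 residual degrees of freedom (edgeR 4.0.16, limma 3.58.1, R 4.3.3). The 5 contrasts were knockout against wild type in each condition and the difference of the retinoic acid change from each of the others. P-values were adjusted by the method of Benjamini and Hochberg across all 17884 tested genes, and 0.05 was the threshold. Standard errors were derived from the F statistic. RNA levels are CPM of rounded counts, and the upper limit for a gene without reads, 3 counts, equals 0.15 to 0.18 CPM in the retinoic acid libraries. Such limits and the counting interval of Xcr1 hold for counting error only, as PCR copies carry no molecular identifiers. The spread of replicates exceeded sampling noise, at a chi-square per degree of freedom of 2.76 in wild type and 1.90 in knockout, so none was taken for a copy. The fit was also run on simulated counts in which only a small set of genes differed between groups. That run does not test the fit at the breadth of change seen here.

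The 31 gene lists hold 691 different genes, of which 648 were tested; 86 stand in more than 1 list. Named genes were Phf6, Pou5f1, members of the lists, the 12 largest rises and falls in retinoic acid by the rule in the results and the 6 largest of each sign for each difference between conditions. The comparison, its lists and this rule were chosen with earlier results of these data known, so the counts are descriptions. Genes with near-identical copies (Rhox, Tcstv, Usp17l and Zscan4) have uncertain values, as do, without a known strand setting, genes that overlap others on the opposite strand (Airn, Kcnq1ot1). Alternatives were upper-quartile and relative log expression scaling, no filter, DESeq2 1.42.0, the 4 retinoic acid libraries alone, the replicate block, effective-length offsets, no chromosome 1 genes and each library left out. A few list members enter the counts but their own values are not reported here.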

Additional observations from a re-analysis of the deposited data

Results flagged for a closer look

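The knockout's change in retinoic acid differed from its change in untreated cells for many of the genes named here, by edgeR's test of the difference itself (adjusted p under 0.05), and 17.7% of all genes tested did so. All values in this part are such differences in log2 change, retinoic acid minus untreated unless doxycycline is named.

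Among endoderm receptors, adaptors and carriers, which take up and transport nutrients, the difference was 2.92 for Dab2, 1.68 for Cubn, 1.59 for Amn, 1.77 for Lrp2, 3.86 for Apom and 1.18 for Rbp4. Among the factors and filaments of endoderm it was 1.53 for Gata4, 0.76 for Krt8, 0.97 for Krt18 and 0.61 for Cldn6. Basement membrane and secreted genes had values of 0.22 for Lama1, 1.27 for Lamb1, 1.20 for Lamc1, 0.55 for Col4a1 and 0.58 for Col4a2, and of 1.88 for Sparc, 2.18 for Srgn, 0.99 for Plat and 0.56 for Hspg2. All of these were more positive in retinoic acid. Opposite values were found for Fst (-1.72) and Fn1 (-0.38).

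Of 31 naive pluripotency genes 23 had a more negative change in retinoic acid and 1 a more positive one. The core factors had differences of -2.16 for Nanog, -0.63 for Sox2, -2.11 for Esrrb, -1.45 for Tfcp2l1 and -1.75 for Zfp42. Krüppel-like and PR domain factors had -1.60 for Klf2, -2.19 for Klf4, -3.34 for Prdm14, -1.75 for Nr5a2 and -2.36 for Dppa3. The oxidases of methylcytosine had -0.80 for Tet1 and -1.49 for Tet2, and Lin28a went the other way with 1.46 for Lin28a.

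Signalling genes differed as well. For Nodal and its relatives the values were -1.79 for Nodal, -3.26 for Lefty1, -4.72 for Lefty2, -3.34 for Tdgf1, -2.99 for Inhbb and -3.13 for Otx2. For BMP ligands, the inhibitory SMAD gene and the Id genes they were -0.59 for Bmp4, -0.98 for Bmp7, -0.77 for Smad7, 0.71 for Id1, 1.22 for Id2 and 0.71 for Id3. For the FGF ligands and receptors they were -1.85 for Fgf4, 1.61 for Fgf10, -0.23 for Fgfr1 and 1.56 for Fgfr3, and for genes that respond to FGF -1.39 for Etv4, -1.06 for Etv5, -1.20 for Spry2, -2.04 for Spry4 and -1.0 for Dusp6. Wnt ligands had -1.99 for Wnt3, -2.38 for Wnt6 and -3.54 for Wnt8a, and receptors, targets and an antagonist had -1.04 for Axin2, -3.07 for Cdx1, -0.86 for Fzd5, -2.45 for Fzd10 and 0.51 for Sfrp1.

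Retinoid and Hox genes had values of 0.31 for Rara, 0.84 for Crabp1, 1.20 for Aldh1a2 and -0.98 for Tgm2, and of 5.26 for Hoxa5, 0.79 for Hoxb9 and 4.04 for Meis2. Trophectoderm and adhesion genes had -0.70 for Tfap2c, -1.47 for Krt7 and 1.85 for Gata3, and -1.25 for Cdh1 and -1.08 for Cldn4. Growth and ribosome genes had -1.5 for Myc, -0.52 for Ccnd1, -0.88 for Rrp12, -0.69 for Ubtf and -0.21 for Npm1. Genes of chromatin, p53, glycolysis, interferon response and the Y chromosome had -0.65 for Mtf2, 0.26 for Usp22 and -0.72 for Ccng1, and 0.55 for Ldha, -1.27 for Ifitm1 and -0.47 for Ddx3y. The imprinted genes Meg3 and Mest had 5.04 for Meg3 and 0.50 for Mest.

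Of the 6 largest differences of each sign that the naming rule picked, those not yet given were -5.56 for Itga2, -3.98 for Nphs1 and -3.86 for Pou2f3, and 5.16 for Spink1, -5.60 for Tnc and 4.71 for Tspan8. Tnc, Itga2, Hoxa5 and Meg3 had no read in 1 of the 4 groups, so their fitted values depend on the prior count and set no bound. Other genes with large changes in retinoic acid had 1.5 for Crmp1, -1.75 for Ly6a, -3.31 for Mep1b, -2.34 for Msc and -3.41 for Npr3, and 1.99 for Nsg1, -0.41 for Peg10, 3.64 for Pramel7, -1.20 for Rapgef3, 1.26 for Reln, 2.75 for Xcr1 and 3.01 for Xlr3b.

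Between retinoic acid and doxycycline the naming rule picked 12 genes. More negative in retinoic acid were -5.46 for Lefty2, -4.42 for Dppa1, -4.14 for Sp5, -3.89 for Npr3, -3.87 for Rapgef3 and -3.87 for Fbln5. More positive were 9.53 for Exosc6, 7.15 for Pramel7, 5.77 for Klk7, 5.46 for Xlr3b, 4.37 for Spink1 and 4.23 for Cubn. Dppa1, Exosc6 and Pramel7 had no read in 1 of these groups. Klk7, under 1 CPM in all 4 retinoic acid libraries, lost its call in retinoic acid with effective-length offsets (edgeR adjusted p = 0.063). Pramel7 and Nphs1 lost theirs with DESeq2 (adjusted p = 0.13 and 0.081). With 1 library left out, the log2 changes within retinoic acid at which calls were lost follow. They were 1.14 for Klk7 without wild-type replicate 2, and 1.96 and 2.08 without knockout replicate 1 or 2. For Pramel7 they were 0.58 without wild-type replicate 2 and 0.79 without knockout replicate 1. For Nphs1 they were -2.70 and -2.15 without wild-type or knockout replicate 1.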

How the results depend on the processing

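The values of named genes followed here are those of knockout against wild type in retinoic acid. Their differences from untreated or doxycycline-treated cells are not among them. None of the called values changed its sign under any alternative run. Of all 6936 called genes, 38 did so with effective-length offsets. Of the 2156 values of named genes under the alternatives, 2119 kept their direction and their side of the threshold, 29 lost the call and 8 gained it; the losses were those of Foxa1, Krt8, Krt19, Sox17, Rarb, Hoxa7, Hoxd8, Nphs1, Klk7 and Pramel7. With effective-length offsets 2209 genes rose instead of 3355, the differences from untreated cells were 783 more positive and 978 more negative (1308 and 1849 in the reported fit), those from doxycycline 1121 and 1189 (1921 and 2031), and the higher members were 6 for Hox genes and 6 for adhesion genes. With DESeq2 976 genes had a more negative change than untreated and 1306 than under doxycycline, 6 neural genes rose and 6 two-cell-embryo genes fell. With the 4 retinoic acid libraries alone 9 hypoxia and glycolysis genes rose. The cause of these moves was not tested. Leaving out 1 library in turn, which leaves a lone sample assumed to vary like the other groups, gave 2340 to 2615 genes higher and 2633 to 2947 lower, 7 to 11 neural and 6 to 8 adhesion genes higher, 7 to 8 two-cell-embryo genes lower and 7 to 13 hypoxia and glycolysis genes higher. DESeq2 called 2316 genes higher and 2409 lower. With the replicate block 3284 genes rose and 3522 fell, and no list count moved by over 1.5 times. Deviations of same-numbered wild-type and knockout libraries in retinoic acid correlated at -0.001. Such deviations also hold counting noise, so this value cannot exclude a shared day or batch, and the labels name no pairing. At the depth of these libraries, genes with under 3 counts in both genotypes could not be compared.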

Other observations

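Gene groups beyond those above were counted too, and not all of them stood apart from all genes tested. Neural genes rose in part: of 29 tested 12 were higher and 3 lower (median 0.33; 12 and 3 of 27 off chromosome 1), at low levels; without knockout replicate 2, 7 were higher, and with DESeq2 6. Ncam1, a neural adhesion molecule, was at 41.8 and 42.8 CPM in the wild-type libraries and 78.8 and 72.01 CPM in the knockout libraries (0.84 ± 0.06, edgeR adjusted p = 2.7e-11). Tubb3 and Nes, a neuronal tubulin and a progenitor filament, were not called (0.00 and 0.13). Among 27 genes of hypoxia and glycolysis there were 14 that rose and 1 that fell (median 0.16), such as Ldha, for lactate dehydrogenase, at 890.3 and 1025 CPM in wild type and 1442 and 1603 CPM in knockout (0.67 ± 0.06). Without wild-type replicate 1 the number was 8 and without knockout replicate 2 it was 7. The same count, 14 higher and 1 lower, was found in untreated cells. Two-cell-embryo genes, which mark a rare state of embryonic stem cells, had 11 of 19 lower and none higher (median -0.68; 10 of 18 off chromosome 1), with Zscan4c at 144 and 135 CPM in wild type and 70.01 and 66.1 CPM in knockout (-1.03 ± 0.07). The 19 include near-identical copies whose reads cannot be divided with certainty, and 7 fell without wild-type replicate 2 or knockout replicate 1.

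Targets of p53 showed a change that differed by condition. In untreated cells 18 of 24 were higher in knockout and 1 lower (median 0.32), whereas in retinoic acid 3 were higher and 9 lower (median -0.10; 3 and 7 of 22 off chromosome 1), and 17 of the 24 had a more negative change in retinoic acid. Ccng1, for cyclin G1, was at 269 and 254 CPM in wild type and 261 and 257 CPM in knockout in retinoic acid, with an untreated change of 0.71 and a difference of -0.72 ± 0.07 (adjusted p = 2.8e-08). Cholesterol synthesis genes went the same way, with 17 of 24 higher and 3 lower untreated, 6 and 6 in retinoic acid (6 and 5 of 23 off chromosome 1), and 10 with a more negative change. Interferon-stimulated genes had 8 of 17 lower and 2 higher (median -0.12; 7 and 2 of 16 off chromosome 1), with Ifitm1, a membrane protein of embryonic cells too, at 208 and 192 CPM in wild type and 79.7 and 79.3 CPM in knockout (-1.33 ± 0.06). Polycomb and DNA methylation genes had 9 of 24 lower and 3 higher (median -0.08; 8 and 3 of 23 off chromosome 1), with Mtf2, a Polycomb cofactor, at 311 and 309.9 CPM in wild type and 178 and 163 CPM in knockout (-0.86 ± 0.06). The interferon list had 5 lower without wild-type replicate 1, and its 2 higher genes became 1 with DESeq2 or without wild-type replicate 2, 0 without knockout replicate 1, and 4 with relative log expression factors or the retinoic acid libraries alone. Germline genes had 5 of 22 higher and 5 lower (5 and 5 of 21 off chromosome 1), with 3 lower when wild-type or knockout replicate 1 was left out or with effective-length offsets. Primitive streak and mesoderm genes had 4 of 21 higher and 7 lower (4 and 7 of 20 off chromosome 1). That list had 2 higher without wild-type or knockout replicate 2, with DESeq2 or with effective-length offsets; 2 were lower without wild-type replicate 1, 3 with DESeq2, and 4 without wild-type replicate 2, without knockout replicate 1 or with effective-length offsets. Contractile and cytoskeletal genes had 4 of 18 higher and 6 lower (4 and 6 of 17 off chromosome 1). All 3 Y-linked genes tested were higher (median 0.98), among them Ddx3y at 26.9 and 21.4 CPM in wild type and 46.8 and 48.8 CPM in knockout, and also in untreated cells (median 1.22).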
